A study of Mus musculus with 6 samples.

Results

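The 37 genes described here encode the enzymes that build cholesterol and fatty acids and proteins of sterol control and handling, and many are known targets or partners of the sterol regulatory element-binding proteins (SREBPs). They were taken by gene symbol from a list, which was chosen with earlier results of these data known. Each of the 37 was found among the 53735 features of the count table. All 37 also passed the filter on low counts, which left 13092 genes for testing. They fall into the mevalonate arm (7 genes), the steps of squalene to sterol (11), SREBP control and sterol handling (8), acetyl-CoA and fatty acid synthesis (4) and the desaturases and elongases (7).

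SREBPs are transcription factors made as precursors in the membrane of the endoplasmic reticulum. When membrane sterol is low, the escort protein Scap carries them to the Golgi, where proteases release the active part, and when sterol is plentiful the Insig proteins hold Scap back. Srebf2 encodes the form that mainly drives cholesterol synthesis and Srebf1 encodes forms that mainly drive fatty acid synthesis, and a phagocyte that digests dead cells takes up their cholesterol and fatty acids as well.

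The data are RNA sequencing counts from wild-type mouse bone marrow stromal cells, labelled as mesenchymal stromal cells, in 3 fed and 3 control libraries. In both groups the cells had been sorted as negative for lineage markers, CD45 and CD31 and positive for CD51. They were then grown in medium with serum and without ascorbic acid at 2% oxygen to passage 2 or 3. Fed wells received 5000000 dye-labelled apoptotic thymocytes each, stood for 24 h at 5% oxygen, were washed, and their label-positive cells were sorted. Control wells received no thymocytes and were also washed and sorted. The labels give no strain, sex or age, and they do not say which oxygen level or medium change the control wells had in the last 24 h, so those differences and the sort for label cannot be told apart from feeding. Nor do they state that the libraries of a group are separate cultures or animals; p-values then reflect the spread among these 6 samples, part or all of which may be technical.

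Total counts were 20034583 to 22410047 in fed libraries and 19069074 to 21949519 in control libraries. Fed and control libraries lay at opposite ends of the leading principal component (56.3% of the variance), and control library 3 stood apart on the next one (14.3%). All 11 stromal markers were detected, among them the collagen genes Col1a1 (17818 CPM in fed and 19408 CPM in control cells), Col1a2 (11002 and 12550 CPM) and Col3a1 (4135 and 5172 CPM). CPM is a gene's count divided by the scaled library total, times 1000000. The endothelial genes Cdh5, Tie1 and Emcn were at 0 in every library.

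Promoters of 4 of the 9 members called lower in fed cells that had a promoter are shown as examples. SREBPs act at promoters together with NF-Y, a factor that binds a CCAAT box (ATTGG on the other strand). The sequences are from RefSeq on GRCm38.p6 and run from 250 bases before the annotated start to 49 bases past its first base, 5′ to 3′ on the gene's strand. Capitals mark matches on either strand to the sterol regulatory element TCACNCCAC, its shorter core CACCCCAC, ATTGG and the E-box CACGTG. The Hmgcs1 window is chr13:119690101-119690400 (plus strand), Mvd is chr8:122443373-122443672 (minus), Insig1 is chr5:28071162-28071461 (plus) and Mylip is chr13:45389492-45389791 (plus).
Hmgcs1: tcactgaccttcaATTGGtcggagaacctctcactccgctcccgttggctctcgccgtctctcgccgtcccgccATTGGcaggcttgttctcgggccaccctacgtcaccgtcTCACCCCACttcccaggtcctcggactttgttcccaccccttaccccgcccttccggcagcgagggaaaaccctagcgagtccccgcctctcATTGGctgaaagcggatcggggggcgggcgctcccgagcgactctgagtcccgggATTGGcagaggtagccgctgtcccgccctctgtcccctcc
Mvd: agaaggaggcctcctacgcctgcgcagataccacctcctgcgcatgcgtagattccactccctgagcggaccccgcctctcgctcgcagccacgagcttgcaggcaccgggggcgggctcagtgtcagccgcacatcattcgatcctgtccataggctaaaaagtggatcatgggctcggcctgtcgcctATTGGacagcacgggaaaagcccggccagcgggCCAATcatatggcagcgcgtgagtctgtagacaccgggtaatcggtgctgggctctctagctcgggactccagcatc
Insig1: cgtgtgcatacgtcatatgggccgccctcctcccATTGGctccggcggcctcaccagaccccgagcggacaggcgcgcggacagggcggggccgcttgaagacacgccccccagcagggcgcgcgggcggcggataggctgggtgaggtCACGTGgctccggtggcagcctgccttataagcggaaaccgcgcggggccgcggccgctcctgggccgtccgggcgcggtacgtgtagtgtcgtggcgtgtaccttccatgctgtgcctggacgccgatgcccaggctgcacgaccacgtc
Mylip: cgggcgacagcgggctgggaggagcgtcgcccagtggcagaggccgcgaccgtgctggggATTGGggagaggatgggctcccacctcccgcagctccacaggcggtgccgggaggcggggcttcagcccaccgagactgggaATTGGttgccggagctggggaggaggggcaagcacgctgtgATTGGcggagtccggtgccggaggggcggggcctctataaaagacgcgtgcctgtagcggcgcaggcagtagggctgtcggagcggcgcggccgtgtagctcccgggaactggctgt
The Hmgcs1 window held the sterol element at -137 (first base of the match, counted from the start site as 0) between ATTGG boxes at -237, -176, -45 and 10. In Mvd there were ATTGG boxes at -60 and, on the other strand, at -27, and Mylip had them at -190, -108 and -67. Insig1 had an ATTGG box at -216 and an E-box at -101. The Mvd, Insig1 and Mylip windows held no match to the sterol element or its shorter core.

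At least 1 promoter was found for 30 of the 37 members, and none for Fdps, Fdft1, Sqle, Stard4, Scd1, Scd2 and Fads1. ATTGG on either strand was present for 25 of the 30 genes (83.3%), against 41.1% of the 27025 genes of the promoter table and 43.2% of the 9299 tested genes with a promoter. It was present for all 9 members called lower that had a promoter, for 3 of the 5 called higher and for 13 of the 16 not called. The GC-rich box CCCGCC, a core of sites for Sp factors, was found in 23 members (76.7%), against 69.5% of tested genes. It too was present for all 9 called lower, and for 2 of the 5 called higher and 12 of the 16 not called. CACGTG was found in 6 members (20.0%), against 11.9% of tested genes. The sterol element itself was found for 1 member, Hmgcs1, against 1.44% of tested genes, and the shorter core, which overlaps it in Hmgcs1, for 2 members, Acat2 and Hmgcs1, against 3.85%. A match is a run of letters and no measured binding, and other spellings of the sterol element were not searched.

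**Figure D1:**
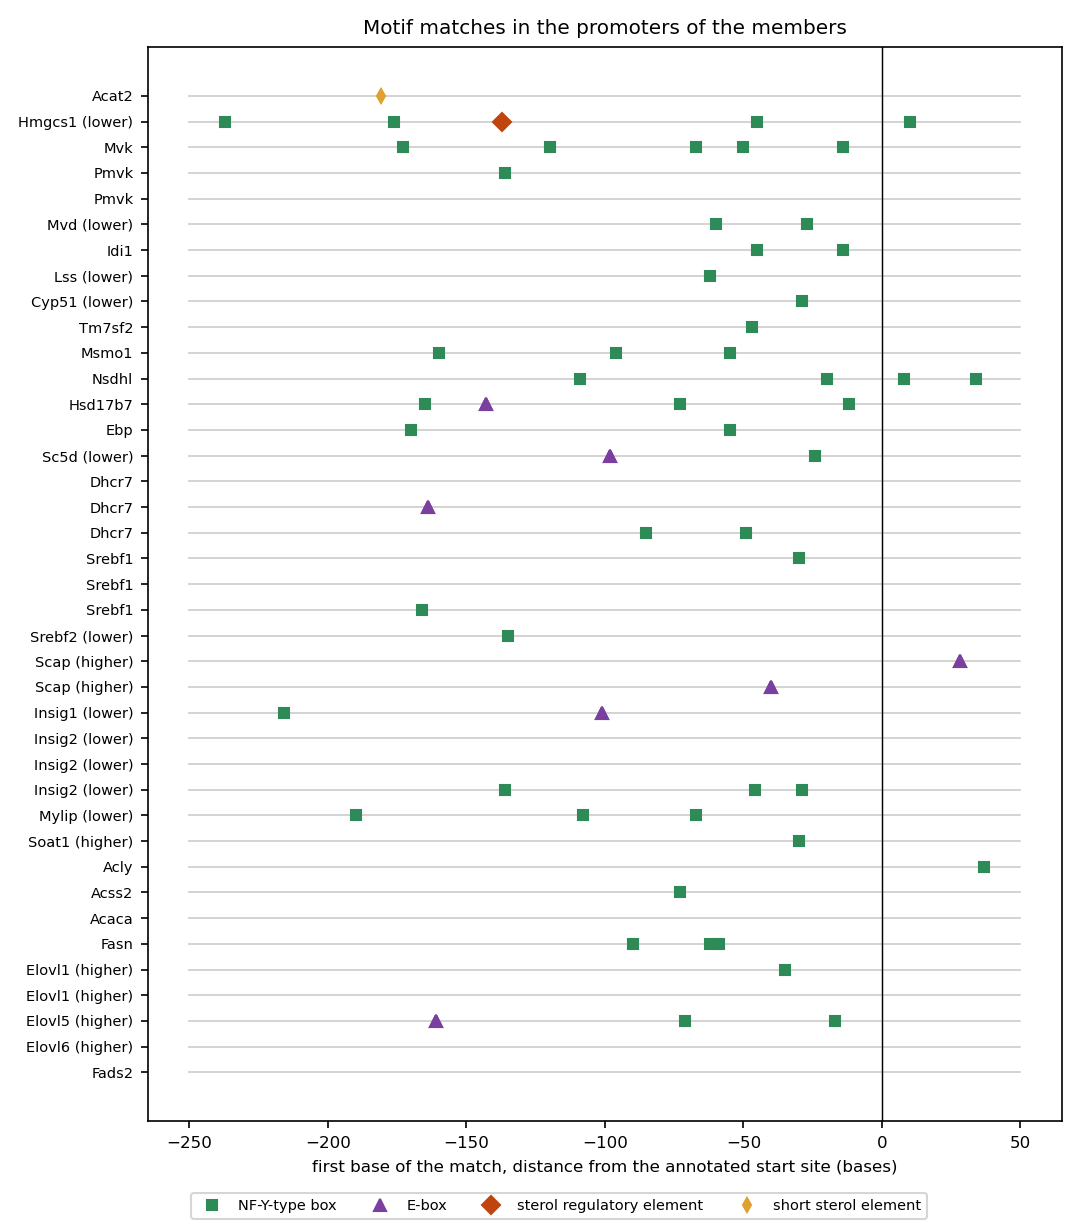
Matches to the sterol element, its shorter core, ATTGG (NF-Y-type box) and CACGTG (E-box) in each annotated promoter of the members, plotted by distance of the first base of the match from the start site; each line is 1 promoter, and genes called in fed against control carry the direction. ATTGG matches lie along 25 genes, and the sterol element lies in Hmgcs1 alone.

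In fed against control cells, 11 of the 37 members fell and 5 rose, and 21 did not pass the test (edgeR's quasi-likelihood test, Benjamini-Hochberg adjusted p under 0.05 over all genes tested). The background was high: 39.5% of all genes tested were called, 19.0% lower and 20.5% higher, against 43.2% of the members, 29.7% lower and 13.5% higher. The members' total share of calls was thus near the background, and their calls leaned to lower. The log2 fold changes of members ranged from -0.61 to 0.33 with a median of -0.074, beside a median of -0.0066 over all genes tested, and 26 of 37 (70.3%) were below 0, beside 51.1% of all genes. Fed and control libraries did not overlap for 20 members, 14 of them lower in fed and 6 higher (background 24.0% lower and 25.1% higher). The sum over the members was 2592, 2633 and 2682 CPM in the 3 fed libraries, against 2814, 2870.1 and 2904 CPM in the 3 control libraries. In such bulk samples, fewer cells that express a gene and less RNA per cell cannot be told apart.

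**Figure D2:**
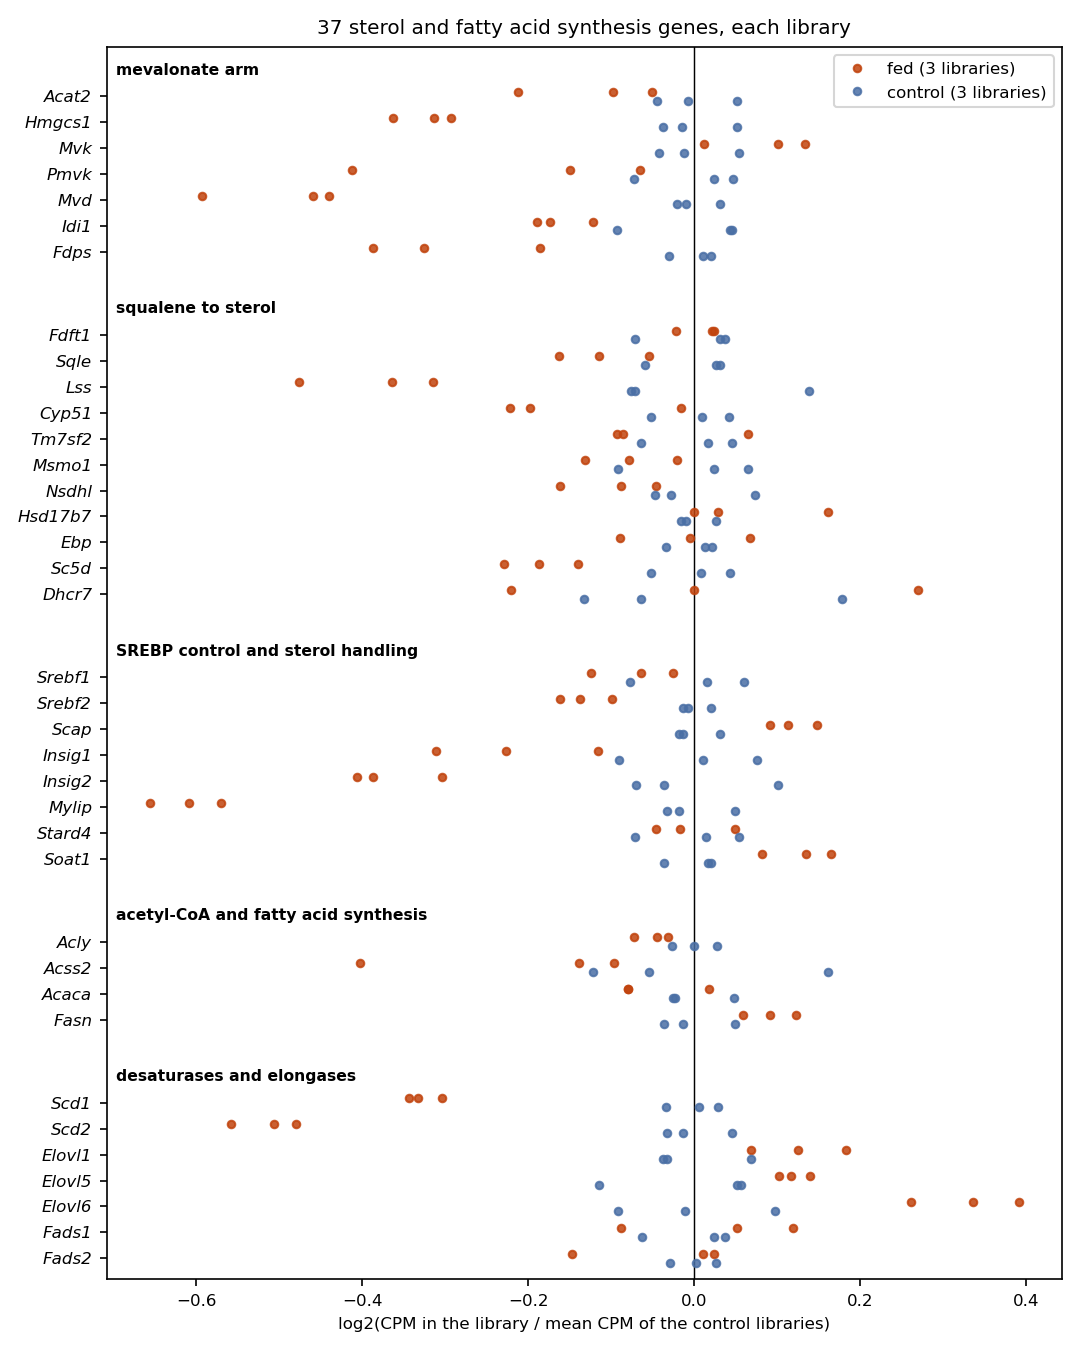
Each of the 37 members in each library, as log2 of its CPM over the mean CPM of the control libraries, grouped by role; orange points are the 3 fed and blue points the 3 control libraries. The fed points of Mylip, Mvd and Scd2 stand farthest left of the control points, and those of Elovl6 farthest right.

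The mevalonate arm turns acetyl-CoA into farnesyl diphosphate. Of its 7 members 2 fell, Hmgcs1 and Mvd, and none rose (0 higher at an unadjusted p under 0.05 as well, and 0 by DESeq2 and by limma-voom), with a median log2 fold change of -0.21. Hmgcs1, the synthase that makes HMG-CoA, had 44.3, 42.8 and 44.9 CPM in fed libraries, against 54.4, 53.6 and 57.0 CPM in control libraries. Every fed library lay below every control library. Its log2 fold change was -0.32 ± 0.047 (SE, n = 3 each; edgeR adjusted p = 1.45e-05). In GENCODE, 11.6% of the 50-base words of its transcripts also occur in another gene, mainly an antisense one.

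Mvd, the decarboxylase that yields isopentenyl diphosphate, had 8.48, 7.73 and 8.59 CPM in fed libraries, against 11.5, 11.6 and 11.9 CPM in control libraries. The groups were well apart, and the change was -0.50 ± 0.086 on the log2 scale (edgeR adjusted p = 0.000117). The farnesyl diphosphate synthase gene Fdps had 2.28, 2.62 and 2.38 CPM in fed libraries, against 2.92, 3.02 and 3.00 CPM in control libraries. These did not overlap, but the gene, with 46 to 64 counts a library, did not pass the test (log2 fold change -0.29 ± 0.16, edgeR adjusted p = 0.146). Of its 50-base words 26.2% occur in other annotated genes, among them processed pseudogenes and Gm43738, which overlaps it on the same strand. Its counts are therefore uncertain.

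Idi1, the isomerase of isopentenyl diphosphate, was likewise lower in each fed library at 3.38 ± 0.0829 CPM in fed and 3.78 ± 0.204 CPM in control cells (SD, n = 3 each), without passing the test (edgeR adjusted p = 0.376), and it shares 25.3% of its words with other genes. Acat2, the thiolase that joins acetyl-CoA units, averaged 18.4 ± 1.05 CPM in fed and 20.0 ± 0.675 CPM in control cells (edgeR adjusted p = 0.17). Of its words 39.1% occur elsewhere, with the most matches in Acat3 and others antisense in Tcp1. The phosphomevalonate kinase gene Pmvk had a log2 fold change of -0.21 ± 0.089 (edgeR adjusted p = 0.0705), with overlapping groups. It passed when fed library 1 was left out (edgeR adjusted p = 0.0286). Mvk, the mevalonate kinase gene, was the only one of the 7 above 0, at 0.086 ± 0.059 (edgeR adjusted p = 0.264).

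Squalene synthesis, its oxidation and closure to lanosterol, and the trimming of lanosterol to cholesterol involve the next 11 members. Lss, Cyp51 and Sc5d fell, and none of the 11 rose (0 higher at an unadjusted p under 0.05, and 0 by DESeq2 and limma-voom), with a median of -0.074. Here too the share called, 27.3%, was below the 39.5% of all genes tested. Lss, the cyclase that forms lanosterol, had 18.6, 20.8 and 20.1 CPM in fed libraries, against 24.6, 24.5 and 28.4 CPM in control libraries. No fed library reached the lowest control library, and the log2 fold change was -0.38 ± 0.070 (edgeR adjusted p = 0.00022). Sc5d, a sterol desaturase near the end of the route, had 30.1, 29.2 and 28.3 CPM in fed libraries, against 34.2, 33.4 and 32.0 CPM in control libraries. Its groups were also apart, by a smaller step of -0.19 ± 0.055 (log2, SE; edgeR adjusted p = 0.00999).

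Cyp51, which removes a methyl group from lanosterol, had 51.5, 50.6 and 58.4 CPM in fed libraries, against 59.4, 57.0 and 60.8 CPM in control libraries. The third fed library lay within the control range. Its log2 fold change was -0.14 ± 0.053 (edgeR adjusted p = 0.0411), and the call was lost without fed library 1 (edgeR adjusted p = 0.131), fed library 2 (0.207), control library 1 (0.0934) or control library 3 (0.111), and with DESeq2 (adjusted p = 0.108). Sqle, the epoxidase that acts on squalene, had a log2 fold change of -0.11 ± 0.045 (edgeR adjusted p = 0.0618), and was called lower without fed library 3 (0.043) or control library 1 (0.0326).

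The other 7 genes of these steps had overlapping groups, and none passed the test. They had log2 fold changes from -0.10 (Nsdhl, a sterol dehydrogenase) to 0.064 (Hsd17b7, a sterol ketoreductase). Ebp, the sterol isomerase, averaged 36.5 ± 1.98 CPM in fed and 36.7 ± 0.748 CPM in control cells, and Fdft1, the squalene synthase, 37.5 ± 0.655 and 37.3 ± 1.56 CPM (SD, n = 3 each). Fdft1 shares 26.5% of its words with other genes, chiefly Ctsb on the opposite strand, and Tm7sf2, a sterol reductase, 9.87%, all with its same-strand neighbour Vps51. Dhcr7, the reductase of the last step, varied widely within each group, at 13.4, 15.6 and 18.8 CPM in fed and 14.2, 14.9 and 17.6 CPM in control libraries. Msmo1, an oxidase of methyl sterols, stood at -0.074 ± 0.056 (log2, SE; edgeR adjusted p = 0.312).

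**Figure D3:**
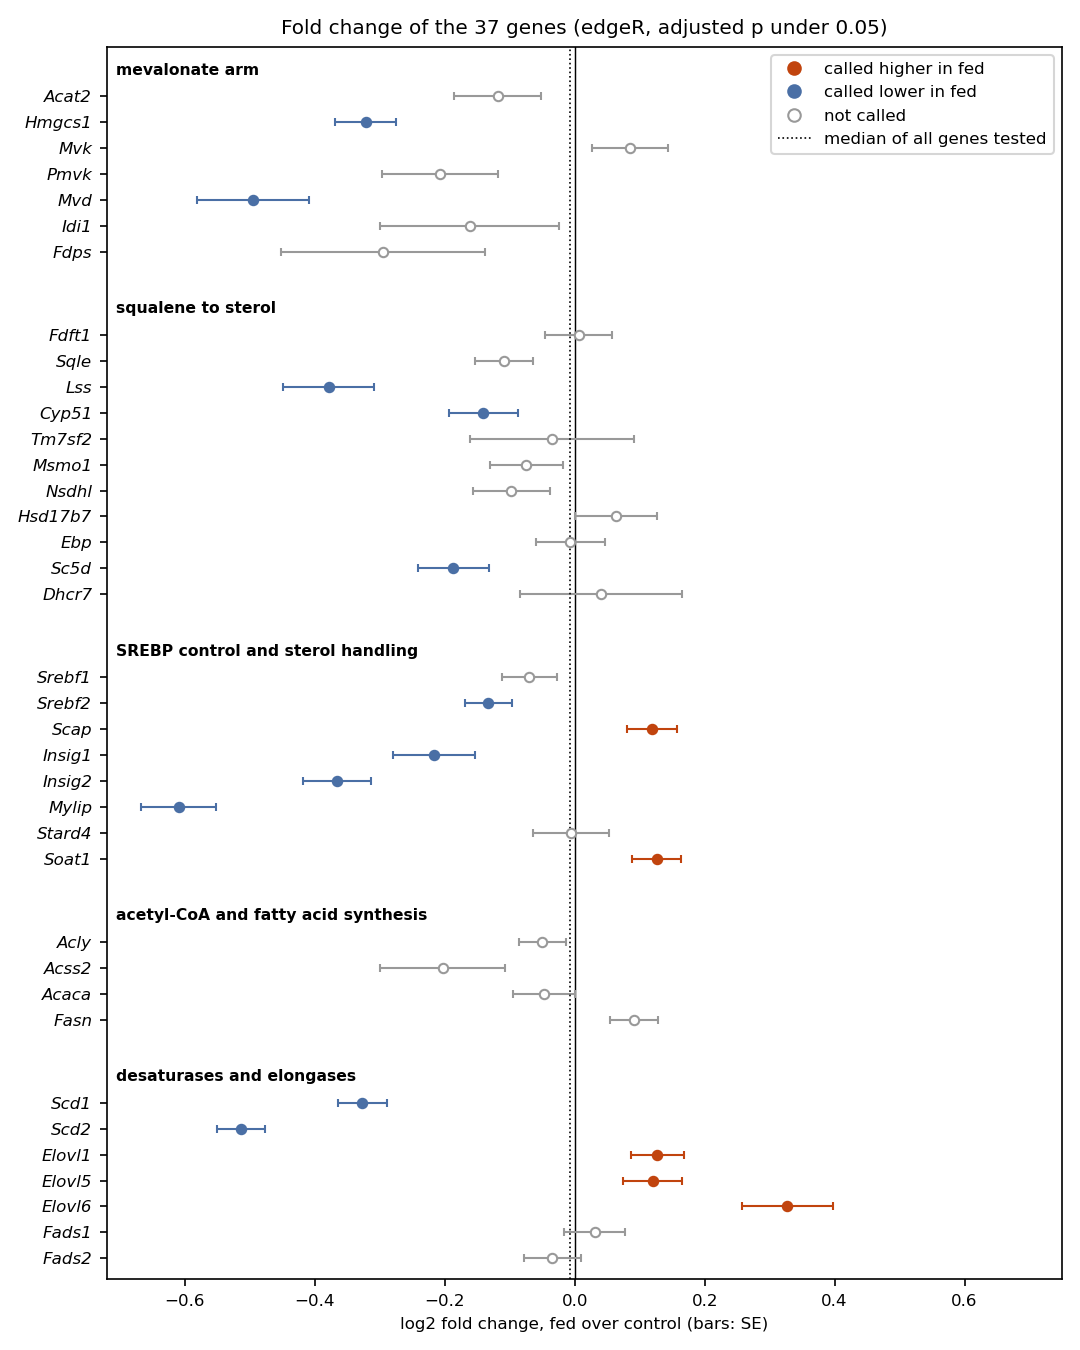
Log2 fold change of each member, fed over control, with its SE, grouped by role; blue points were called lower and orange points higher (edgeR, adjusted p under 0.05), open points were not called, and the dotted line is the median of all genes tested. Mylip at -0.61 and Elovl6 at 0.33 mark the ends of the range.

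Among the 8 genes of SREBP control and sterol handling 4 fell (Srebf2, Insig1, Insig2 and Mylip) and 2 rose (Scap and Soat1), with a median of -0.10. Together 75% were called, beside 39.5% of all genes tested. Mylip encodes a ubiquitin ligase that sends lipoprotein receptors to degradation and is itself a target of the sterol-sensing liver X receptors. It had 21.1, 22.3 and 21.8 CPM in fed libraries, against 32.8, 32.4 and 34.3 CPM in control libraries. The groups lay far apart compared with their spread, and with a log2 fold change of -0.61 ± 0.057 (edgeR adjusted p = 5.85e-08) it was the 1 member called with a change of at least 1.5-fold.

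Insig2, an anchor of Scap in the endoplasmic reticulum, had 40.2, 43.2 and 40.8 CPM in fed libraries, against 57.2, 52.0 and 50.8 CPM in control libraries. All fed libraries were below all control libraries, and the log2 fold change was -0.37 ± 0.053 (edgeR adjusted p = 1.34e-05). Its relative Insig1, whose own transcription SREBPs raise, had 28.6, 25.0 and 26.5 CPM in fed libraries, against 31.2, 29.1 and 32.7 CPM in control libraries. The highest fed library was just below the lowest control library. The log2 fold change of Insig1 was -0.22 ± 0.063 (edgeR adjusted p = 0.00983), and the call was lost without fed library 2 (0.0727).

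Srebf2 had 142, 139.5 and 146 CPM in fed libraries, against 158, 155 and 155 CPM in control libraries. Its groups did not overlap, and the log2 fold change was -0.13 ± 0.036 (edgeR adjusted p = 0.00632). Srebf1 averaged 111 ± 3.81 CPM in fed and 116 ± 5.61 CPM in control cells (SD, n = 3 each), with overlapping groups and no call (edgeR adjusted p = 0.203). Neither count tells the active form of the protein from its precursor.

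Scap had 92.2, 93.6 and 95.9 CPM in fed libraries, against 85.5, 85.8 and 88.4 CPM in control libraries. Each fed library was above each control library, by 0.12 ± 0.039 on the log2 scale (edgeR adjusted p = 0.019), and the call was lost without fed library 3 (0.076), control library 1 (0.0589) or control library 2 (0.0803), and with DESeq2 (adjusted p = 0.0686). An antisense gene covers part of Scap, with 9.96% of its words. Soat1, which esterifies cholesterol for storage, had 150.4, 147 and 142 CPM in fed libraries, against 136, 136 and 131 CPM in control libraries. Here too the groups were apart, and the log2 fold change of 0.13 ± 0.038 (edgeR adjusted p = 0.0115) held its call in each alternative run at the same threshold. Stard4, a carrier of sterol between membranes, averaged 27.7 ± 0.939 CPM in fed and 27.7 ± 1.22 CPM in control cells (edgeR adjusted p = 0.952).

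The 4 genes that make acetyl-CoA and palmitate gave no call in either direction (0 of 4 with edgeR, DESeq2 and limma-voom, and 1 higher and 1 lower at an unadjusted p under 0.05). Over all genes tested, 39.5% were called. Fasn, the fatty acid synthase, had 247, 237 and 242 CPM in fed libraries, against 221, 235 and 225 CPM in control libraries. All fed values were above all control values, with a log2 fold change of 0.091 ± 0.037 (edgeR adjusted p = 0.0564), and the gene was called higher when libraries were scaled by their totals alone (0.0144). Acly, which splits citrate into acetyl-CoA, averaged 201 ± 2.90 CPM in fed and 208 ± 3.89 CPM in control cells (SD, n = 3 each; edgeR adjusted p = 0.287). Acss2, which makes acetyl-CoA from acetate, had a log2 fold change of -0.20 ± 0.10 (edgeR adjusted p = 0.1). Acaca, the carboxylase that commits acetyl-CoA to fatty acids, stood at -0.048 ± 0.048 (edgeR adjusted p = 0.451), with 30.4% of its words shared, mostly with the pseudogene Gm5182.

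Among the desaturases and elongases 2 of 7 fell, both stearoyl-CoA desaturases, and 3 rose, all elongases (median 0.031). That made 71.4% called, beside 39.5% of all genes tested. Without fed library 2, fed library 3 or control library 1, 1 elongase rose, Elovl6. Stearoyl-CoA desaturases turn saturated into monounsaturated fatty acids. Scd2 had 366, 379 and 387 CPM in fed libraries, against 527, 534 and 556 CPM in control libraries. Scd1 had 105, 104 and 107 CPM in fed libraries, against 129, 133 and 135 CPM in control libraries. For both genes the fed libraries were close together and well below the control libraries. The log2 fold change was -0.51 ± 0.037 for Scd2 (edgeR adjusted p = 2.04e-09) and -0.33 ± 0.037 for Scd1 (edgeR adjusted p = 7e-07). Of the words of Scd1 and Scd2, 4.56% and 3.97% occur in another gene, mostly in each other and in Scd3 and Scd4.

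Elovl6, which lengthens palmitate to stearate, had 20.3, 18.6 and 19.6 CPM in fed libraries, against 15.4, 16.6 and 14.5 CPM in control libraries. The lowest fed library exceeded the highest control library, and the log2 fold change was 0.33 ± 0.070 (edgeR adjusted p = 0.000918). Elovl1, an elongase of very long saturated and monounsaturated chains, had 126, 132 and 137 CPM in fed libraries, against 118, 118 and 126 CPM in control libraries. The lowest fed and the highest control library nearly met, and the change was 0.13 ± 0.042 on the log2 scale (edgeR adjusted p = 0.0191). The call was lost without fed library 2 (0.055), fed library 3 (0.109), control library 1 (0.0726) or control library 2 (0.101).

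Elovl5, an elongase of polyunsaturated chains, had 87.6, 88.5 and 89.9 CPM in fed libraries, against 75.4, 84.6 and 84.9 CPM in control libraries. Control library 1 lay well below the other control libraries. The log2 fold change was 0.12 ± 0.045 (edgeR adjusted p = 0.0407), and the call was lost without control library 1 (0.264), fed library 2 (0.0922) or fed library 3 (0.116), and with DESeq2 (adjusted p = 0.108). The desaturases of polyunsaturated fatty acids, Fads1 and Fads2, had log2 fold changes of 0.031 ± 0.047 and -0.035 ± 0.044, with overlapping groups (edgeR adjusted p = 0.642 and 0.566).

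Per kilobase of exon, the level of the members spanned a wide range, with Scd2 at the top (69.1 ± 1.91 CPM per kilobase in fed and 98.6 ± 2.81 in control cells; SD, n = 3 each). Fads1 (48.9 ± 3.54 and 47.9 ± 1.80), Elovl1 (48.3 ± 1.91 and 44.2 ± 1.84) and Acly (38.0 ± 0.549 and 39.3 ± 0.737) followed. In fed cells, Fads1 and Elovl1 were closer than their SDs. Srebf2 (19.8 ± 0.434 and 21.7 ± 0.273 CPM per kilobase) and Srebf1 (19.7 ± 0.676 and 20.6 ± 0.996) were likewise at near levels in fed cells. Insig2 (11.9 ± 0.457 and 15.4 ± 0.980 CPM per kilobase) stood above Insig1 (8.63 ± 0.589 and 10.0 ± 0.580) in both groups. At the bottom were Tm7sf2 (0.984 ± 0.0618 and 1.01 ± 0.0391), Idi1 (0.963 ± 0.0237 and 1.08 ± 0.0581) and Fdps (0.577 ± 0.0417 and 0.709 ± 0.0130). Of their 50-base words 9.87%, 25.3% and 26.2% occur in other genes, so these low ranks are uncertain.

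**Figure D4:**
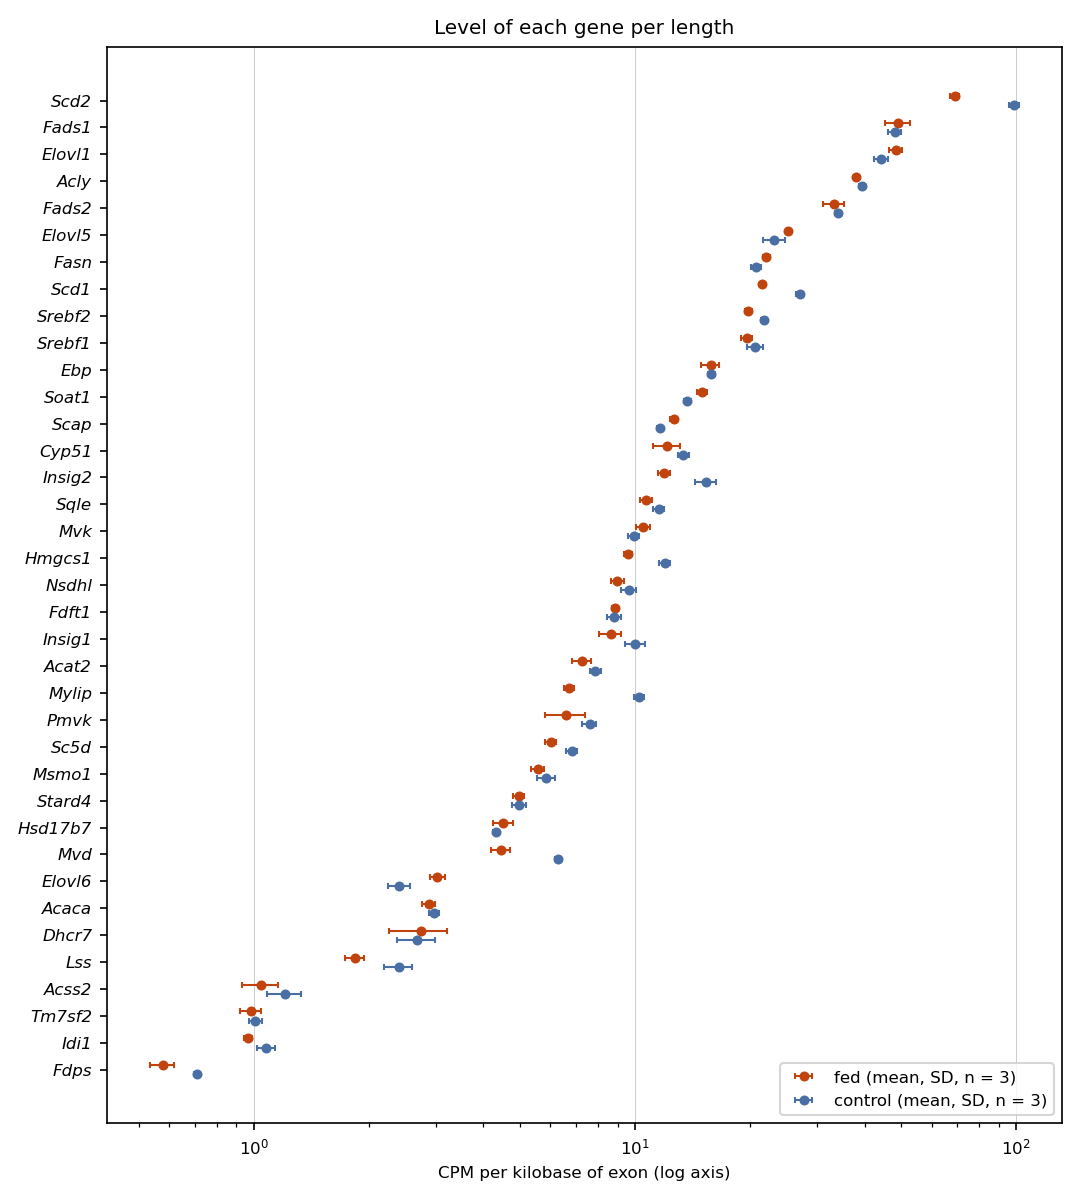
Mean level of each member in CPM per kilobase of exon on a log axis, with SD over the 3 libraries, in fed (orange) and control (blue) cells, ordered by the level in fed cells. Scd2 is highest at 69.1 in fed and 98.6 in control cells, and Fdps lowest at 0.577 in fed and 0.709 in control cells. Fdps shares 26.2% of its 50-base words with other genes, so its rank is uncertain.

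Other genes of lipid metabolism were described from 5 further lists of 79 genes, of which 73 were tested. Of these 21 rose (28.8%) and 16 fell (21.9%), beside 20.5% higher and 19.0% lower of all genes tested. Their median log2 fold change was 0.029, beside -0.0066 over all genes tested. Without fed library 3, 13 rose and 10 fell, and 10 fell with DESeq2 or with library totals alone. Branches of the mevalonate pathway that lead to ubiquinone, dolichol and protein prenylation had 5 of 10 genes higher and none lower (2 lower at an unadjusted p under 0.05, 0 by DESeq2 and limma-voom), with a median of 0.14. The higher count was 3 without fed library 2, control library 1 or control library 2, and 2 without fed library 3 or with DESeq2, and leaving out control library 3, or upper quartile scaling, gave 1 gene lower.

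Pdss1, a subunit of the synthase of the ubiquinone tail, had 4.21, 4.00 and 4.98 CPM in fed libraries, against 2.64, 2.74 and 2.48 CPM in control libraries. The groups were far apart for a gene at this low level, with a log2 fold change of 0.75 ± 0.15 (edgeR adjusted p = 0.000422). Its partner subunit Pdss2 rose by 0.36 ± 0.11 on the log2 scale (edgeR adjusted p = 0.0139), a call that was lost without fed library 3 (0.0854) or control library 2 (0.0586) and with DESeq2 (adjusted p = 0.0592). Coq2, which attaches the tail to the ring, rose by 0.27 ± 0.058 (edgeR adjusted p = 0.000944).

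Of 11 genes for SREBP processing and for degradation of sterol-regulated proteins in the endoplasmic reticulum, 10 were tested, 2 rose and 2 fell (median 0.028). Their called share of 40% was near the 39.5% of all genes tested. Leaving out fed library 3, control library 1 or control library 2 left 1 that rose. Syvn1, a ubiquitin ligase of the endoplasmic reticulum, had a log2 fold change of -0.28 ± 0.045 (edgeR adjusted p = 5.52e-05). Mbtps1, the Golgi protease that makes the initial cut in SREBPs, fell by 0.13 on the log2 scale (SE 0.035, edgeR adjusted p = 0.00443). Erlin1, a membrane protein that binds cholesterol, rose by 0.15 ± 0.043 (edgeR adjusted p = 0.0108).

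Among genes of liver X receptors and sterol transport, 5 of 18 tested rose and 6 fell (median -0.081). Called genes made up 61.1%, beside 39.5% of all genes tested. The lower count was 3 without fed library 3, with DESeq2, without the filter on low counts and with library totals alone. Arl4c, a small GTPase and known liver X receptor target, had 19.8, 19.7 and 19.3 CPM in fed libraries, against 12.2, 10.2 and 12.7 CPM in control libraries. Ch25h, which makes an oxysterol from cholesterol, had 5.01, 5.70 and 5.51 CPM in fed libraries, against 3.10, 3.07 and 2.79 CPM in control libraries. In both genes every fed library was above every control library, with log2 fold changes of 0.75 ± 0.079 for Arl4c (edgeR adjusted p = 2.47e-07) and 0.85 ± 0.13 for Ch25h (edgeR adjusted p = 3.09e-05). Scarb1, a receptor for high-density lipoprotein, rose by 0.40 ± 0.043 (edgeR adjusted p = 2.91e-07). Abca1, a cholesterol exporter and liver X receptor target that is named here after its values were seen, had 34.2, 27.2 and 30.5 CPM in fed libraries, against 42.1, 44.2 and 38.1 CPM in control libraries. All its fed libraries were below all control libraries, with a log2 fold change of -0.44 ± 0.077 (edgeR adjusted p = 0.00048). Tmem97 rose with a smaller adjusted p, by 0.32 ± 0.052 (edgeR adjusted p = 5.61e-05). Of the receptor genes, Nr1h3 rose by 0.44 ± 0.12 (edgeR adjusted p = 0.00547). Nr1h2 had a log2 fold change of -0.19 ± 0.048 (edgeR adjusted p = 0.00334). Npc2, Lipa, Osbp and Gramd1a were also called lower.

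Other fatty acid synthesis and activation genes gave 5 higher and 4 lower of 17 tested (median 0.029), or 52.9% called, beside 39.5% of all genes tested. Leaving out 1 library gave 2 or 3 higher for fed libraries 2 and 3 and control libraries 1 and 2, and 1 or 2 lower for fed library 3 and control libraries 2 and 3. DESeq2 gave 3 higher and 2 lower. Fads3, a relative of the polyunsaturated desaturases, rose by 0.25 ± 0.038 on the log2 scale (edgeR adjusted p = 2.01e-05) and Hacd1, a dehydratase of the elongation cycle, by 0.30 ± 0.065 (0.000885). Slc25a1, which exports citrate from mitochondria, had a log2 fold change of -0.16 ± 0.041 (edgeR adjusted p = 0.00379). Glycerolipid synthesis gave 4 higher and 4 lower of 18 (44.4% called, median 0.024), with 2 higher without fed library 1 or fed library 3. Lpin1, a phosphatidate phosphatase, had a log2 fold change of -0.46 ± 0.065 (edgeR adjusted p = 1.09e-05), and Gpam, the acyltransferase that starts the route, -0.24 ± 0.046 (0.000319). Dgat2, which completes triglycerides, rose by 0.41 ± 0.072 (edgeR adjusted p = 0.000114).

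**Figure D5:**
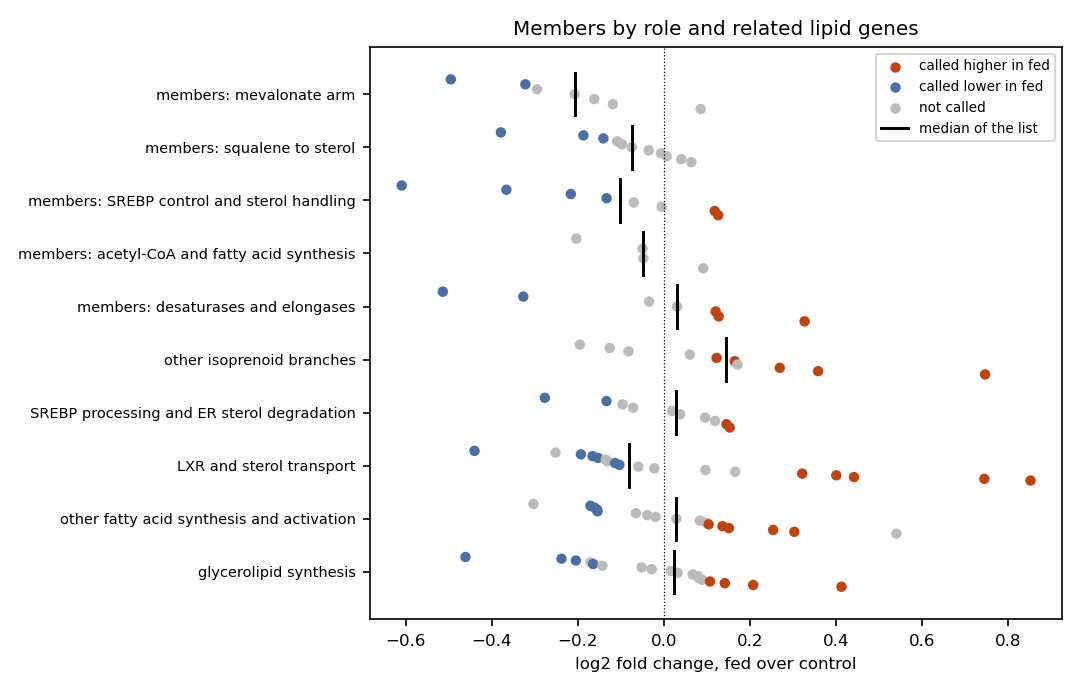
Log2 fold change, fed over control, of each tested gene in the 5 roles of the members and in 5 related lists; orange points were called higher, blue points lower and grey points were not called (edgeR, adjusted p under 0.05), and the black bar is the median of the list. The median is -0.21 in the mevalonate arm and 0.14 in the other isoprenoid branches.

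Markers of thymocytes, macrophages and endothelial cells were at low levels, and of the 6 tested Lyz2 rose and Vwf fell. The summed level of 15 thymocyte genes overlapped between the groups, at 0.782 to 1.73 CPM in fed and 0.417 to 0.948 CPM in control libraries. It was led by Rag1 (0.384 in fed and 0.0490 in control cells), Lck (0.353 and 0.560) and Ptprc (0.157 and 0.0157), with Cd3g, Rag2, Ptcra and Cd2 at 0 in every library. Lck made up most of the control sum, at 0.371, 0.520 and 0.790 CPM, against 0.347, 0.184 and 0.529 CPM in fed libraries. Rag1 and Ptprc were higher in every fed than in every control library, and Themis, with at most 1 count a library, was lower. Cd3e and Cd4 were seen in fed library 1 alone. The sum of 12 macrophage genes was 15.4 to 17.2 CPM in fed and 9.82 to 11.3 CPM in control libraries. Lyz2, which leads it, averaged 7.47 ± 0.866 CPM in fed and 3.32 ± 0.659 CPM in control cells (log2 fold change 1.17 ± 0.14, edgeR adjusted p = 1.61e-06), while Csf1r (5.40 and 5.78 CPM) and Cd68 (1.30 and 1.14 CPM) did not pass the test and Fcgr1 was at 0. The macrophage genes Adgre1, C1qa, C1qb, C1qc and Tyrobp averaged 0.173, 0.280, 0.185, 0.389 and 0.140 CPM in fed cells and were at 0 in every control library. The same held for the thymocyte genes Cd8a, Cd8b1 and Dntt, at 0.0759, 0.110 and 0.142 CPM in fed cells. The sum of 7 endothelial genes was 4.05 to 5.40 CPM in fed and 5.79 to 6.11 CPM in control libraries, led by Tek (2.92 and 3.04 CPM), Vwf (1.70 and 2.79 CPM) and Pecam1 (0.0796 and 0.0860 CPM). In fed cells the macrophage sum was above the mean level of the members Fdps (2.43 CPM), Idi1 (3.38), Tm7sf2 (4.33), Mvd (8.26), Acss2 (10.6) and Pmvk (11.3), and its range took in that of Dhcr7 (15.9). That sets 12 genes together against single genes, and the part of macrophage RNA in these members was not tested.

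Stromal and adipocyte genes, which stromal cells themselves can express, were far higher. The 11 stromal genes summed to 34795 to 36834 CPM in fed and 39583 to 41745 CPM in control libraries. Of these 11 genes 7 fell (63.6%), beside 19.0% lower of all genes tested. The 8 adipocyte genes summed to 221 to 230 CPM in fed and 249 to 275 CPM in control libraries, with Lep at 0. Among them Lpl, the lipoprotein lipase, averaged 53.1 ± 3.26 CPM in fed and 110.5 ± 9.29 CPM in control cells (edgeR adjusted p = 1.51e-08), Plin4 24.9 ± 3.35 and 29.7 ± 2.57 CPM (0.0409), and Fabp4 142 ± 3.63 and 118 ± 1.18 CPM (9.01e-06; SD, n = 3 each). Adipoq, which defines adipocytes, averaged 3.53 ± 0.974 CPM in fed and 2.59 ± 0.305 CPM in control cells and did not pass the test. The part of these cell types in the members' differences was not tested.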

How the data were processed

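The authors deposited raw counts for each gene symbol. The submitters' processing notes name STAR 2.6.0c, Subread 1.6.1 with featureCounts, Trimmomatic 0.36 and MultiQC 1.5, and the build GRCm38. Libraries were prepared from 200 ng of total RNA with a stranded kit that selects polyadenylated RNA, per the labels' protocols. For the annotation release, the strand setting and reads with several matches, nothing is given in the sources used here, so reads of overlapping or near-identical genes may be split.

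Tests were run with edgeR 4.0.16 in R 4.3.3 (filterByExpr, TMM scaling, robust quasi-likelihood F-test, no replicate block), and p-values were adjusted by Benjamini-Hochberg over 13092 genes. CPM and their SDs use TMM-scaled totals, and levels per kilobase divide them by the exon union of GENCODE M21 (GRCm38). SEs of log2 fold changes were derived from the F statistic. DESeq2 1.42.0 and limma-voom 3.58.1 were alternatives, with other scalings, filters, a replicate block and leaving out each library. Shared sequence was counted as the share of 50-base words of a gene's transcripts found in another annotated gene. The edgeR fit was also run on simulated counts with the same relative spread for every gene and independent libraries. Those settings differ from the data, so no conclusion is drawn from that run. Each library was counted once, since no pair of a group agreed within sampling noise, which does not show that they are separate cultures. Names that read as dates (27, with 0.227% of the counts) stayed in the totals, and 1 gene of the related lists had no matching name.

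The members and lists were chosen with earlier results of these data known. Called members and those changed at least 1.25-fold were to be given in every library, up to 3 called genes with the smallest adjusted p for each related list, and the 3 most abundant and the defining genes of each marker list. Other members are summarised, with examples. For liver X receptors and sterol transport, every called gene is named, which goes beyond that plan.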

Additional observations from a re-analysis of the deposited data

How the results depend on the processing

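The count of members that fell, 11, was 9 to 12 when 1 library was left out and 10 to 14 under the other settings. The count that rose, 5, was less stable: it was 3 with DESeq2, 1 at an adjusted p under 0.01 and 2 to 5 when 1 library was left out (2 without fed library 3 or control library 1, 3 without fed library 2 or control library 2). The median log2 fold change of the members, -0.074, was -0.043 with library totals as the only scaling, which moved the median of all genes to 0.025, and -0.12 to -0.062 when 1 library was left out (-0.12 without control library 1, -0.10 without fed library 3). No member that was called changed direction in any setting.

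With the replicate number as a block, 6 members rose, 14 fell and the median was -0.076, with Fasn, Pmvk, Sqle and Acss2 added to the calls. The labels give the numbers no meaning, and the deviations of same-numbered libraries correlated at 0.10, 0.022 and 0.13. As a hint from the data and not the design, 5 of 6 libraries correlated best with their own number. Besides the libraries named for Cyp51 and Elovl5, those calls were lost with limma-voom (adjusted p = 0.051 and 0.0508) and without robust estimation (0.0533 each). Cyp51 was also lost with library totals (0.12) and Elovl5 with upper quartile scaling (0.0686), which called Sqle (0.0389). Fdps and Idi1 had the lowest counts of the members, 46 to 84 a library, and SEs of 0.16 and 0.14 on the log2 scale.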
